A study of Mus musculus with 16 samples.

Results

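Genes of glycolysis and of the response to low oxygen were followed in pulmonary endothelial cells (ECs) of mice by bulk RNA-seq. They were chosen by symbol as Hif1a, Epas1, Slc2a1, Hk2, Pfkfb3, Aldoa, Pgk1, Pkm, Ldha and Pdk1. All 10 symbols were found among the 54532 entries of each table. Aldoa was carried by 2 entries, so that 11 entries in all held these symbols.

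ECs had been pulled from lung digests with magnetic beads as CD31+ CD45- cells. CD31 is the product of Pecam1, and CD45, the product of Ptprc, marks leukocytes. In the first experiment, male wild-type C57/BL6J mice, bought at 8 weeks of age, received saline (n = 4) or 10 mg/kg lipopolysaccharide (LPS, n = 6), which bacteria carry in their outer membrane, through the trachea. In the second, all mice carried loxP-flanked Fgfr1 alleles and were given tamoxifen and 2 mg/kg LPS. Fgfr1 loxP/loxP littermates (n = 3) served as controls, and Fgfr1 iΔEC/iΔEC mice (n = 3) had in addition a Cre that tamoxifen activates and that is expressed from the promoter of VE-cadherin, a gene of ECs. These mice were adults, and their age in weeks was not given in the sources used here. Lungs were collected after 24 h, and the second experiment had no saline group. The labels number the samples without stating that each came from its own mouse, so p-values measure the spread between these samples. Reads on genes ranged from 13478726 to 18807007 per saline library, 17840221 to 19043015 per LPS library, 15969575 to 17002788 per loxP/loxP library and 16642177 to 16943522 per iΔEC/iΔEC library.

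Glycolysis turns glucose into pyruvate in the cytosol. Hif1a and Epas1 encode HIF-1α and HIF-2α, the subunits of hypoxia-inducible factors that are degraded while oxygen is plentiful. Once stable, they pair with ARNT and bind short DNA motifs near target genes, among them many genes of glycolysis. ECs draw much of their ATP from glycolysis, and Epas1 is abundant in lung endothelium. The mRNA level of a gene does not report the stability of its protein or the flux of glucose.

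LPS raised 8 of the 10 genes and lowered 1. In mean FPKM (fragments scaled by gene length and by a size factor of the library), Pgk1 was 5.34-fold, Hk2 4.55-fold, Pkm 4.52-fold, Ldha 4.32-fold, Hif1a 3.96-fold, Slc2a1 3.16-fold, Aldoa 3.14-fold and Pfkfb3 2.37-fold higher with LPS than with saline. Without saline 1, a library described below, Hk2 was 7.56-fold, Pgk1 5.75-fold and Slc2a1 4.83-fold higher, a choice of libraries made after the values were seen. Epas1 was 2.17-fold lower, and Pdk1 had a ratio of 1.07. The test was limma on log2(FPKM + 1), adjusted after Benjamini and Hochberg over the 14893 genes that averaged at least 0.5 FPKM. At an adjusted p of 0.05 or less, 8 of the 10 genes were higher, where 29.5% of all genes were, and 1 was lower, where 23.7% of all genes were. These 9 genes also moved by at least 1 in log2, as 11.9% of all genes did upward and 6.79% downward. Every LPS library lay above every saline library in the 8 genes that rose, as in 22.7% of all genes, and below in Epas1, as in 16.7%. The median log2 fold change was 1.65 over the 10 genes and 0.01 over all genes. Of the genes that moved by at least 1, 63.6% were higher, a share that was 48.8% with scaling on total reads, 50.7% with quantile normalization and 95.5% with scaling on the endothelial marker genes, so the split over all genes depends on the scaling.

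**Figure D1:**
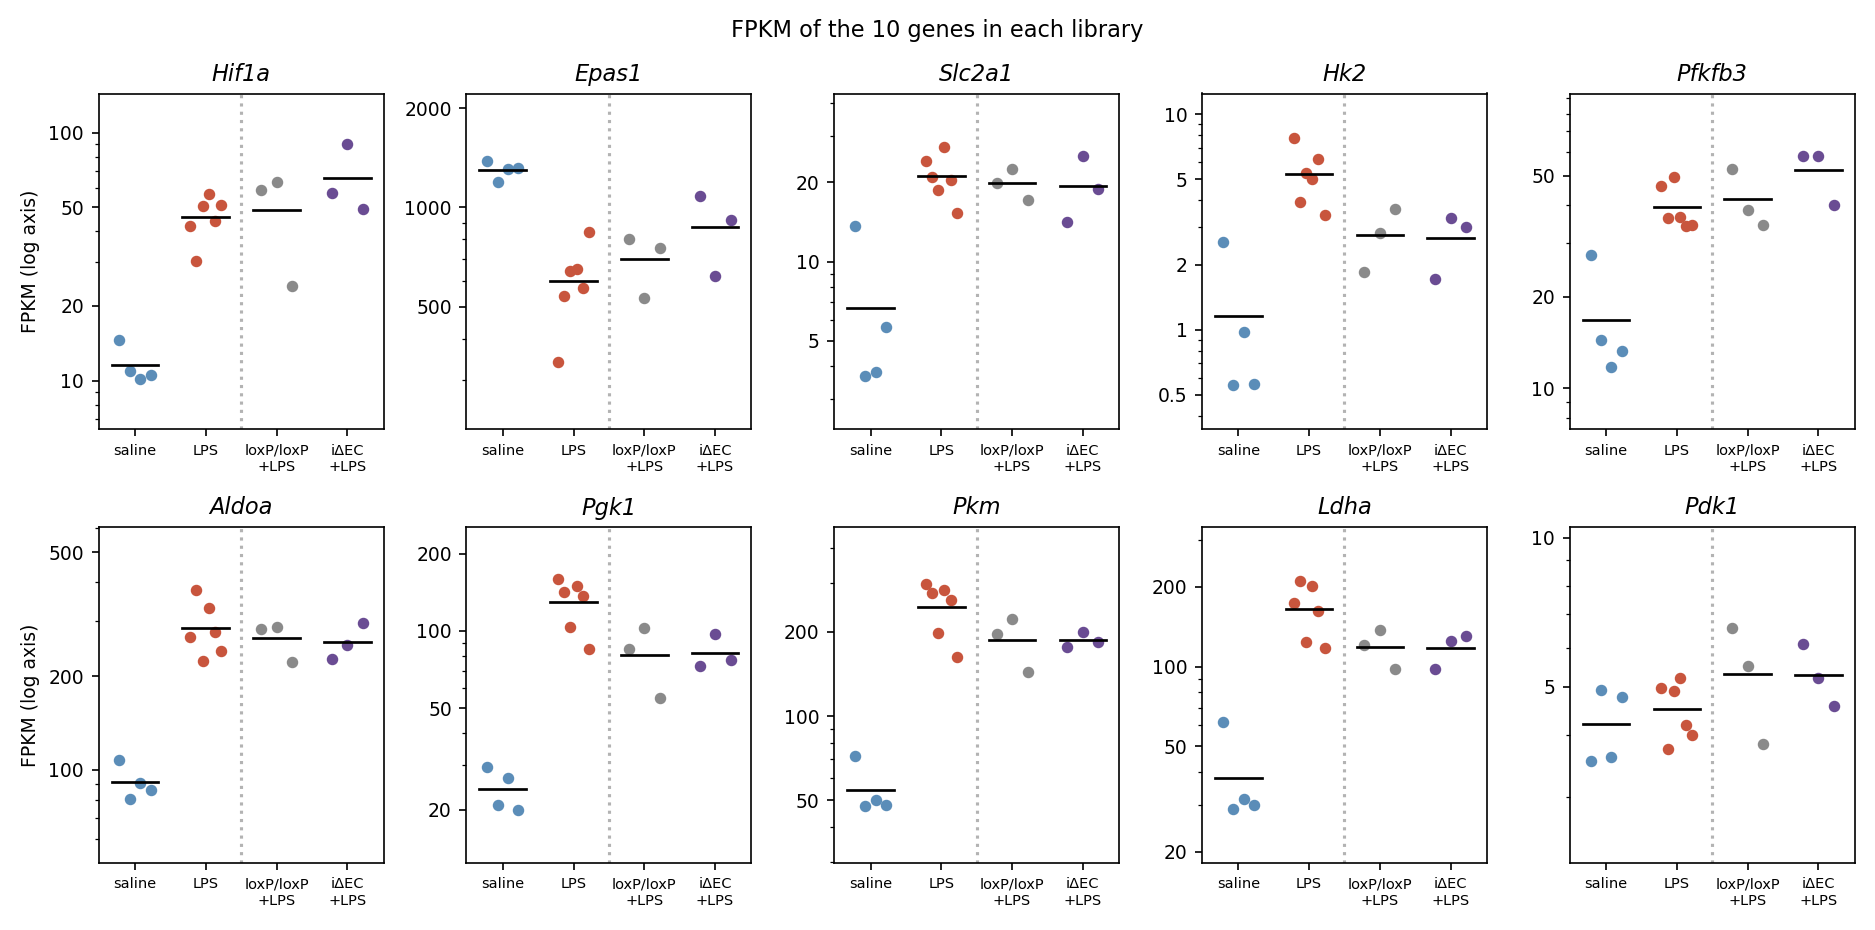
FPKM of the 10 genes, 1 panel per gene with a log axis, in each library of the saline (n = 4), LPS (n = 6), loxP/loxP with LPS (n = 3) and iΔEC/iΔEC with LPS (n = 3) groups. Points are libraries, black lines are group means, and the dotted line parts the experiments, whose tables were normalized separately. All LPS points lie above all saline points in 8 genes and below them in Epas1, while Pdk1 overlaps, as do the genotypes in every panel.

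Some libraries stood apart. Saline 1 had the highest value of its group in 9 of the 10 genes, Pdk1 being the exception, and in 14 of the 18 other glycolytic genes tested. It also had the highest sum in 8 of 9 lists of cell type markers, with neutrophil markers at 1379.6 FPKM, where the rest of the group had 69.5 to 307 FPKM. The share of all genes highest in saline 1 was not counted. Without saline 1, 8 genes were still higher and Epas1 still lower at the same threshold, and the 8 log2 fold changes ran from 1.51 to 2.45 in place of 1.26 to 2.35.

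Markers of leukocytes rose with LPS in these bead-sorted cells. Of the general leukocyte markers 6 of 6 rose, of those of neutrophils 7 of 8, and of those of macrophages 6 of 8, while 6 of 10 endothelial markers fell and none rose. Among all genes 29.5% rose and 23.7% fell. Leukocyte markers summed to 101 to 342 FPKM per saline library and 964 to 2379 FPKM per LPS library, where Tyrobp was the most abundant. The sums were 449 to 1217 and 2209 to 4742 FPKM for macrophages, led by Lyz2, and 69.5 to 1379.6 and 1293 to 6638 FPKM for neutrophils, led by S100a9. No marker of the general leukocyte list was at 0 in any library, Marco was at 0 in saline 1 and Ly6g in saline 4. Ptprc, whose product was used for depletion, rose from 6.97 ± 3.13 (SD, n = 4) to 34.6 ± 11.4 FPKM (SD, n = 6). The endothelial sum, led by Cldn5, was 3276 to 5429 FPKM in saline and 1434 to 3382 FPKM in LPS, with no marker at 0. Pecam1 was at 400.3 ± 81.5 and 358 ± 76.8 FPKM and did not pass the test, and Cdh5, the gene of VE-cadherin, fell by 0.88 in log2.

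RNA of other cell types was read as well. Lymphocyte markers, led by Cd79a, had 3 of 5 tested lower, epithelial markers, led by Sftpc, 2 of 9, fibroblast markers, led by Col3a1 in saline, 4 of 6 (Lum was at 0 in saline 3), and mural markers, led by Acta2 in LPS, 2 of 7. Among all genes 23.7% were lower, which the epithelial and mural shares are near. Erythroid genes, led by Hba-a1 in saline, had 3 of 3 tested higher, where 29.5% of all genes were. The epithelial sum was 1068 to 2845 FPKM in saline and 263 to 941 FPKM in LPS. Leukocytes also run glycolysis and express Hif1a. In bulk samples fewer cells of a type and less RNA per cell cannot be told apart, and the part of leukocyte RNA in the changes described here was not tested.

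**Figure D2:**
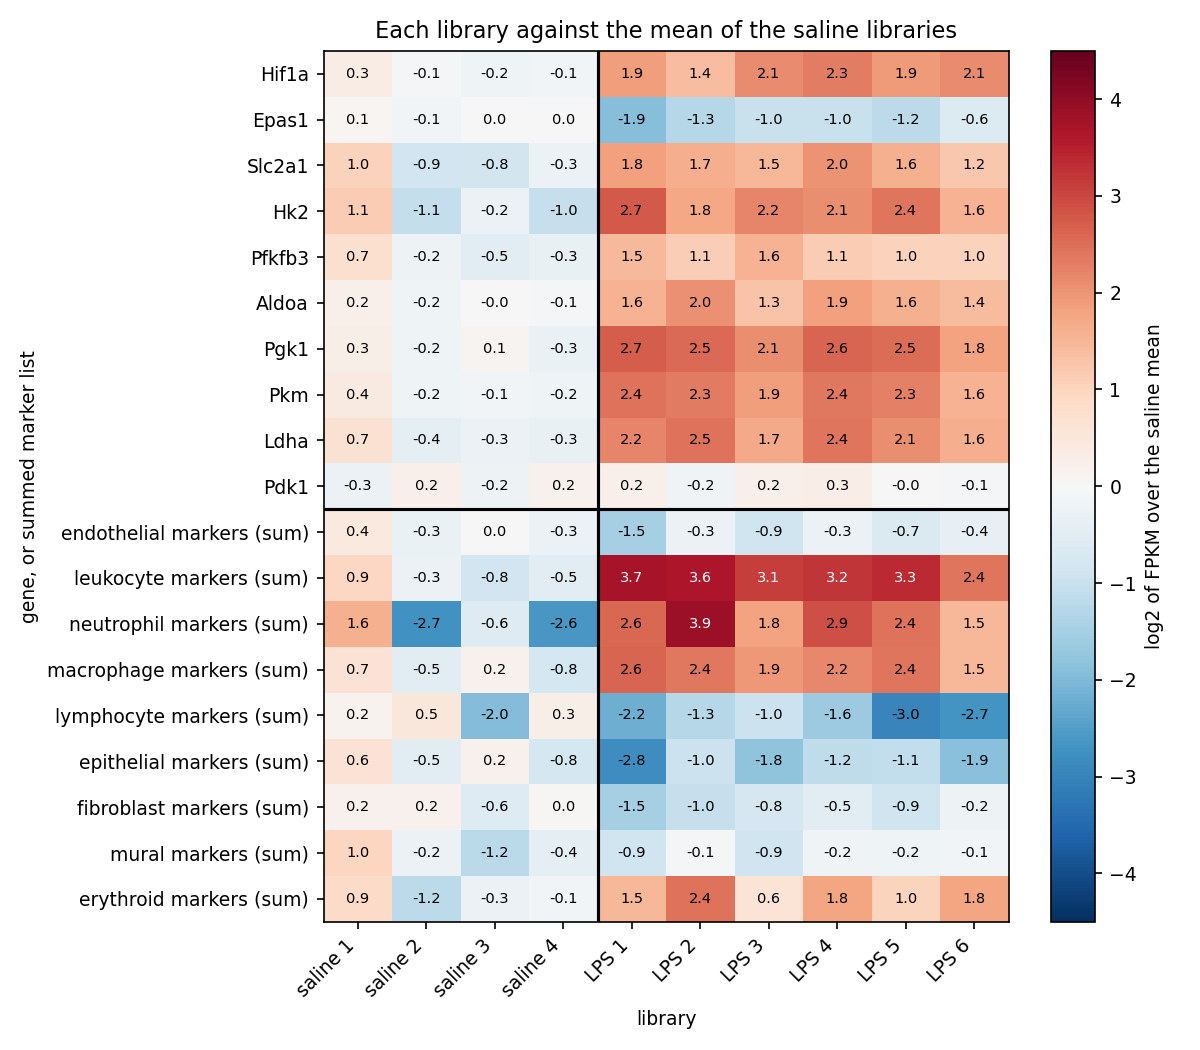
Log2 of FPKM over the mean of the saline libraries, as colour and printed value, for the 10 genes (upper rows) and for the summed FPKM of 9 marker lists (lower rows) in each library of the first experiment (columns). Leukocyte sums lie 2.41 (LPS 6) to 3.72 (LPS 1) above the saline mean, and LPS 6 has the smallest rise of Slc2a1, Hk2, Pgk1, Pkm and Ldha.

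The DNA before start sites was also read for the core motif of HIF. ACGTG was searched on both strands (as ACGTG or CACGT) in the 250 bases before each RefSeq start site (GRCm38.p6). Where the strands overlap in CACGTG, which is also the E-box of other factors, the match was counted once. Windows were found for 9 of the 10 genes, Epas1 being named only, so the gene that fell is not among them. At least 1 window held the motif in 8 of these 9 genes, Pdk1 being the exception, against 18.5% of all symbols with a window and 24.6% of those tested here. The set was named for glycolysis and hypoxia, so its share is not independent of how the genes were chosen and is given as a description. A match describes letters, not binding. A link between motif and change was not tested, and of the genes with a window only Pdk1 did not rise past the test. The windows of Pgk1 (chrX:106186850-106187099, plus strand), Ldha (chr7:46845554-46845803, plus strand), Hk2 (chr6:82774455-82774704, minus strand) and Pdk1 (chr2:71872974-71873223, plus strand) are shown as examples. None overlaps an exon of GENCODE M21, and that of Ldha lies inside the span of the gene. They read 5′ to 3′ on the strand of the gene, with matches in capitals.
Pgk1: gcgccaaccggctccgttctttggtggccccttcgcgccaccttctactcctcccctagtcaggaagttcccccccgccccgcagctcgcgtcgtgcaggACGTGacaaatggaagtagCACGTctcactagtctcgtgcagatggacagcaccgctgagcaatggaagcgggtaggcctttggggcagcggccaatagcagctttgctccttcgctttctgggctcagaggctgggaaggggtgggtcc
Ldha: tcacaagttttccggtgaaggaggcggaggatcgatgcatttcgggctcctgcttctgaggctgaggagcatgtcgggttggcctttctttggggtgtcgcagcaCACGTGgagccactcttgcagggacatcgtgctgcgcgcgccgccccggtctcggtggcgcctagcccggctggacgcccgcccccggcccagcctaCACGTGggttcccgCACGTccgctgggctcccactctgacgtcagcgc
Hk2: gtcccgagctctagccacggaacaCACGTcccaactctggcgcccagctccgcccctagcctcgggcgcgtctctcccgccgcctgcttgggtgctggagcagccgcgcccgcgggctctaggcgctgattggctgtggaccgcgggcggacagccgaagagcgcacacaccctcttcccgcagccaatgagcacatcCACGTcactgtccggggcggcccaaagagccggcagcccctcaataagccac
Pdk1: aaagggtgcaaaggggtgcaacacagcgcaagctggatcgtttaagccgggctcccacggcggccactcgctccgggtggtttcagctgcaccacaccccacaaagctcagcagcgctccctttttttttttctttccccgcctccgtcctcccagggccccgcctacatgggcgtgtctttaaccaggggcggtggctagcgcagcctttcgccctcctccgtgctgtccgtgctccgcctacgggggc
Matches began 150 and 131 bases before the start of Pgk1, 226 and 52 bases before that of Hk2, and 145, 48 and 34 bases before that of Ldha, where 2 of the 3 are CACGTG. Some genes had more than 1 window, and not each held the motif. It was in neither of the 2 windows of Pdk1, and 1 of the 2 windows of Ldha, 1 of the 2 of Pkm and 1 of the 3 of Aldoa were also without it, in genes that rose.

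The alpha subunits of HIF moved in opposite directions. Epas1 (ENSMUSG00000024140, chromosome 17, 86753907 to 86833410, plus strand, GRCm38 as for all genes here) had the highest mean of the 10 genes in every group. It was at 1384, 1193, 1305 and 1318 FPKM in the saline libraries and at 341 to 844 FPKM in the LPS libraries, with a median of 607. Saline values lay close together, while LPS 1 was lowest and LPS 6 highest of the LPS libraries. The log2 fold change was -1.17 (SE 0.25; adjusted p 0.00243 in limma). Scaling on the endothelial markers, which moved the median of all genes to 0.57, left -0.44 (adjusted p 0.0509 in limma) for Epas1. With quantile normalization it was -1.92 (adjusted p 0.000429 in limma).

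Hif1a (ENSMUSG00000021109, chromosome 12, 73901375 to 73947530, plus strand) was at 14.6, 10.9, 10.2 and 10.5 FPKM in saline and at 30.4 to 56.6 FPKM in LPS, with a median of 47.4. Saline 1 stood above the rest of its group, and the lowest LPS library, LPS 2, was still above it. Its log2 fold change was 1.89 (SE 0.17; adjusted p 1.09e-05 in limma). Gm15283 overlaps Hif1a on the opposite strand and reached at most 1.14 FPKM in this experiment, and whether the libraries kept the strand was not given in the sources used here.

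Within single libraries, Epas1 had 94.6 to 128 times the FPKM of Hif1a in saline and 8.09 to 17.8 times in LPS. The log2 ratio of Hif1a to Epas1 was -6.83 ± 0.20 (SD, n = 4) in saline and -3.68 ± 0.41 (SD, n = 6) in LPS, a difference of 3.14 (two-sided exact permutation p = 0.00952, or 0.00952 adjusted over 3 ratios). No smaller p is possible for groups of 4 and 6. Epas1 remained the more abundant in every LPS library.

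Slc2a1 (ENSMUSG00000028645, chromosome 4, 119108711 to 119137983, plus strand) encodes GLUT1, which takes up glucose. It was at 13.6, 3.69, 3.82 and 5.62 FPKM in saline and at 15.3 to 27.2 FPKM in LPS, with a median of 20.7. Saline 1 came close to LPS 6, the lowest LPS library, without overlap. The log2 fold change was 1.67 (SE 0.29; adjusted p 0.00074 in limma), or 2.04 without saline 1.

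Hk2 (ENSMUSG00000000628, chromosome 6, 82725025 to 82774454, minus strand) encodes hexokinase 2, which phosphorylates glucose, and had the lowest level of the 10 genes in saline. It was at 2.55, 0.553, 0.976 and 0.562 FPKM there, with 66 reads in the library with the fewest, and at 3.42 to 7.79 FPKM in LPS, with a median of 5.15. Its log2 fold change was 1.59 (SE 0.26; adjusted p 0.000458 in limma). The pseudocount of 1 FPKM shrinks the change of a gene this low, and with 0.1 FPKM it was 2.30.

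Pfkfb3 (ENSMUSG00000026773, chromosome 2, 11471433 to 11554077, minus strand) makes the activator of phosphofructokinase. It was at 27.5, 14.4, 11.7 and 13.2 FPKM in saline and at 34.2 to 49.6 FPKM in LPS, with a median of 36.4 and no overlap. Its rise was the smallest of the 8, with a log2 fold change of 1.26 (SE 0.21; adjusted p 0.000643 in limma), and 0.94 under quantile normalization.

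Aldoa, Pgk1 and Pkm encode enzymes that act after phosphofructokinase and started from higher levels. Aldoa (ENSMUSG00000030695, chromosome 7, 126795234 to 126800751, minus strand), the aldolase that splits fructose 1,6-bisphosphate, was at 107, 80.3, 90.3 and 86.1 FPKM in saline and at 223 to 377 FPKM in LPS, with a median of 272. The highest of these was LPS 2, the library with the lowest Hif1a. The log2 fold change of Aldoa was 1.63 (SE 0.17; adjusted p 2.87e-05 in limma). With quantile normalization it was 1.01, and with scaling on the endothelial markers 2.35. The second entry of that symbol, ENSMUSG00000114515, chromosome 7, 126800790 to 126809108, minus strand, held 4 to 14 reads per library and had a change of -0.37 (adjusted p 0.0623 in limma).

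Pgk1 (ENSMUSG00000062070, chromosome X, 106187100 to 106203699, plus strand), the first enzyme of the pathway to yield ATP, was at 29.4, 20.9, 26.6 and 19.9 FPKM in saline and at 84.7 to 159 FPKM in LPS, with a median of 139. LPS 6 was lowest and LPS 1 highest, and both were well above saline. Its log2 fold change was 2.35 (SE 0.20; adjusted p 5.63e-06 in limma), the largest of the 10 genes with this pseudocount, while with limma-voom Hk2 changed by 2.53 and Pgk1 by 2.42.

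Pkm (ENSMUSG00000032294, chromosome 9, 59656368 to 59679375, plus strand), the pyruvate kinase that ends glycolysis, was at 72.1, 47.7, 49.96 and 48.0 FPKM in saline and at 162 to 297 FPKM in LPS, with a median of 268. Its splice forms are not parted by values per gene. The log2 fold change was 2.15 (SE 0.20; adjusted p 1.35e-05 in limma). Ldha (ENSMUSG00000063229, chromosome 7, 46841475 to 46855627, plus strand), subunit A of the lactate dehydrogenase that makes lactate from pyruvate, was at 61.7, 29.1, 31.6 and 30.1 FPKM in saline and at 117 to 209.7 FPKM in LPS, with a median of 168. Saline 1 stood well above the other saline libraries and still below LPS 6, the lowest of its group. Ldha changed by 2.12 (SE 0.24; adjusted p 4.95e-05 in limma) in log2.

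Pdk1 (ENSMUSG00000006494, chromosome 2, 71873224 to 71903858, plus strand) encodes a kinase that inhibits pyruvate dehydrogenase and so limits the entry of pyruvate into mitochondria. It was at 3.54, 4.92, 3.61 and 4.77 FPKM in saline and at 3.76 to 5.21 FPKM in LPS, with a median of 4.54, and the groups overlapped over most of their range. Its log2 fold change was 0.08 (95% interval -0.19 to 0.36; adjusted p 0.591 in limma). The sign turned with scaling on total reads, to -0.08, and with scaling on the endothelial markers the value was 0.67 (adjusted p 0.0354 in limma), near the median of all genes under that scaling.

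**Figure D3:**
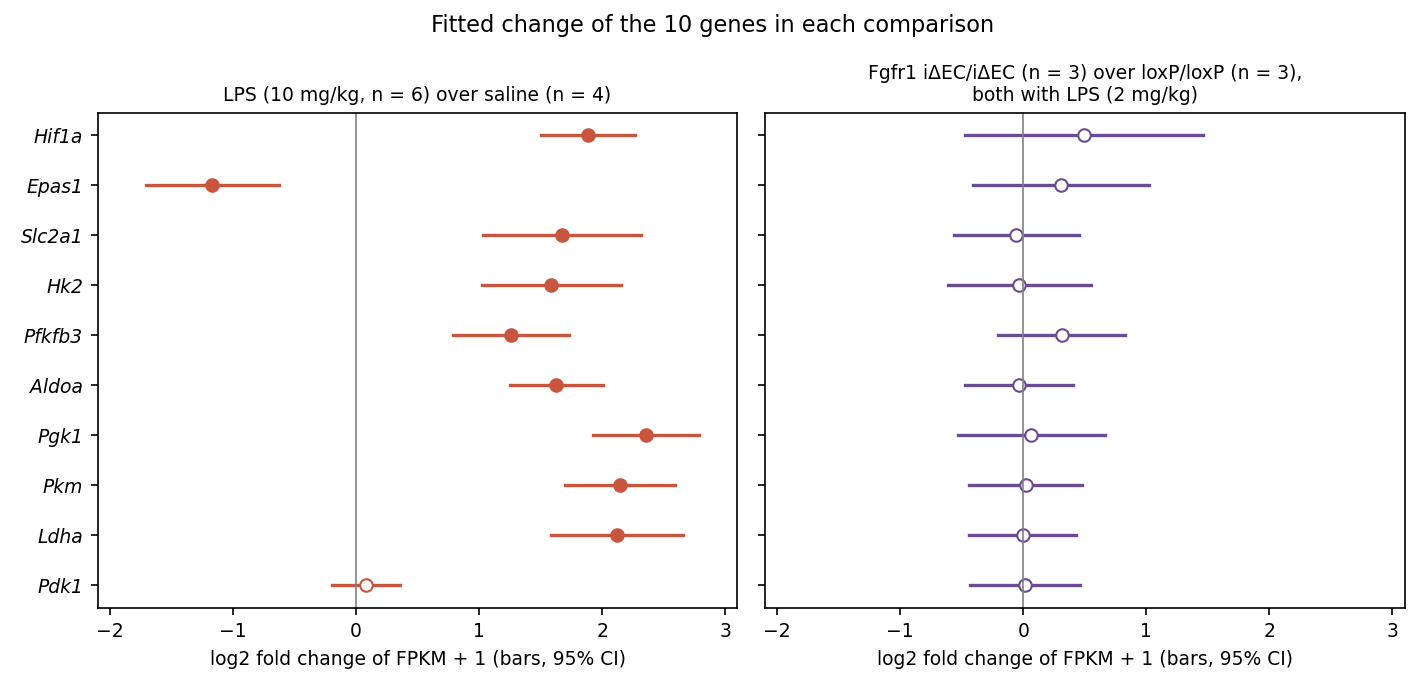
Log2 fold change of FPKM + 1 (x axis) of the 10 genes (y axis), for LPS over saline on the left and iΔEC/iΔEC over loxP/loxP, all with LPS, on the right. Bars are 95% confidence intervals from fits that do not pair the samples, and filled points passed the adjusted p of 0.05. The left panel has 8 filled points from 1.26 to 2.35 and Epas1 at -1.17, and the right panel has open points only, from -0.06 to 0.49.

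By mean FPKM, the saline group ran in the order Epas1, Aldoa, Pkm, Ldha, Pgk1, Pfkfb3, Hif1a, Slc2a1, Pdk1 and Hk2. In this order Epas1 and Aldoa, Aldoa and Pkm, and Pdk1 and Hk2 had ranges apart, and the other neighbours overlapped. In LPS, Hif1a passed Pfkfb3 and Hk2 passed Pdk1. There Pgk1 and Hif1a, Pfkfb3 and Slc2a1, and Slc2a1 and Hk2 had ranges apart, and the other neighbours overlapped, Epas1 and Aldoa included because of the low Epas1 of LPS 1.

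Some genes had their extremes within the LPS group where marker sums had theirs. The share of all genes with extremes in the same libraries was not counted, and a link to the sums was not tested. LPS 6 was lowest in 5 of the 10 genes (Slc2a1, Hk2, Pgk1, Pkm and Ldha), in 12 of the 18 other glycolytic genes tested and in the leukocyte, neutrophil and macrophage sums, and highest in Epas1. LPS 1 was highest in Hk2, Pgk1 and Pkm and in the leukocyte and macrophage sums, and lowest in Epas1 and in the endothelial sum. The other 5 genes were lowest elsewhere, Hif1a and Pdk1 in LPS 2, Epas1 in LPS 1, Aldoa in LPS 3 and Pfkfb3 in LPS 5. Hif1a, Slc2a1 and Pdk1 were highest in LPS 4, as was the endothelial sum. Aldoa and Ldha were highest in LPS 2, as was the neutrophil sum, and Pfkfb3 was highest in LPS 3. Without LPS 6, and without LPS 1, 8 genes were still higher and 1 lower.

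The rest of the pathway was read from 24 other genes, of which 18 passed the filter on low values. Of these, 12 rose, 2 fell and 4 did not pass the test, with a median log2 fold change of 1.11, where 29.5% of all genes rose, 23.7% fell and the median was 0.01. In log2(FPKM + 1), the largest rises were those of Slc16a3 and Eno1, followed by Hk3, which is described below. Slc16a3, the gene of the lactate exporter MCT4, was at 10.7, 0.620, 1.17 and 0.640 FPKM in saline and at 20.5 to 42.9 FPKM in LPS. Saline 1 was the only saline library above 1.17 FPKM. Its log2 fold change was 3.62 (SE 0.49; adjusted p 0.000147 in limma), and 4.29 without saline 1. Eno1, an enolase, rose from 20.2 ± 2.83 (SD, n = 4) to 176 ± 52.3 FPKM (SD, n = 6), by 3.00 (adjusted p 3.97e-06 in limma), and its relative Eno3 by 2.49. Slc16a1, the gene of the transporter MCT1, rose by 1.06, the isomerase genes Gpi1 and Tpi1 by 1.16 and 1.75, and the mutase gene Pgam1 by 1.68.

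Isoenzymes of the same step differed in their values. Among hexokinases, Hk3 rose from 1.70 ± 1.28 (SD, n = 4) to 15.2 ± 4.63 FPKM (SD, n = 6), by 2.65 (adjusted p 2.29e-05 in limma). With limma-voom the change of Hk3 was 3.46, that of Slc16a3 4.68 and that of Slc16a1 1.90. Hk1 was at 12.3 ± 2.05 and 17.1 ± 3.68 FPKM with overlapping groups, and its change of 0.43 passed the test with all libraries (adjusted p 0.0370 in limma) but not in 10 of 17 alternatives. Of the phosphofructokinase genes, Pfkl rose by 1.04, Pfkm fell by 1.08 (adjusted p 0.000515 in limma) and Pfkp had a change of 0.23 (adjusted p 0.284 in limma). Pfkfb2, a relative of Pfkfb3, fell by 0.66. Scaled on the endothelial markers, Pfkm and Pfkfb2 had -0.47 and -0.18 and no longer passed (adjusted p 0.0716 and 0.529 in limma). Slc2a3, the gene of GLUT3, and Ldhb, of the B subunit of lactate dehydrogenase, had changes of -0.08 and -0.05 (adjusted p 0.826 and 0.851 in limma), which were 0.30 and 0.19 without saline 1.

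Such differences were also taken as ratios within libraries, which do not depend on scaling but can change with the mix of cells. The part of leukocyte RNA in these ratios was not tested. The log2 ratio of Hk2 to Hk1 was -3.70 ± 0.83 (SD, n = 4) in saline and -1.73 ± 0.60 (SD, n = 6) in LPS, a difference of 1.98 (two-sided exact permutation p = 0.00952, also after adjustment). With 1 FPKM added to both genes before the ratio the difference was 1.16. Hk1 had the higher level in all 10 libraries. The log2 ratio of Ldha to Ldhb was 3.30 ± 0.25 (SD, n = 4) in saline and 5.50 ± 0.18 (SD, n = 6) in LPS, a difference of 2.20 with the same p. Ldha had 8.30 to 12.2 times the FPKM of Ldhb in saline libraries and 40.0 to 56.4 times in LPS libraries.

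**Figure D4:**
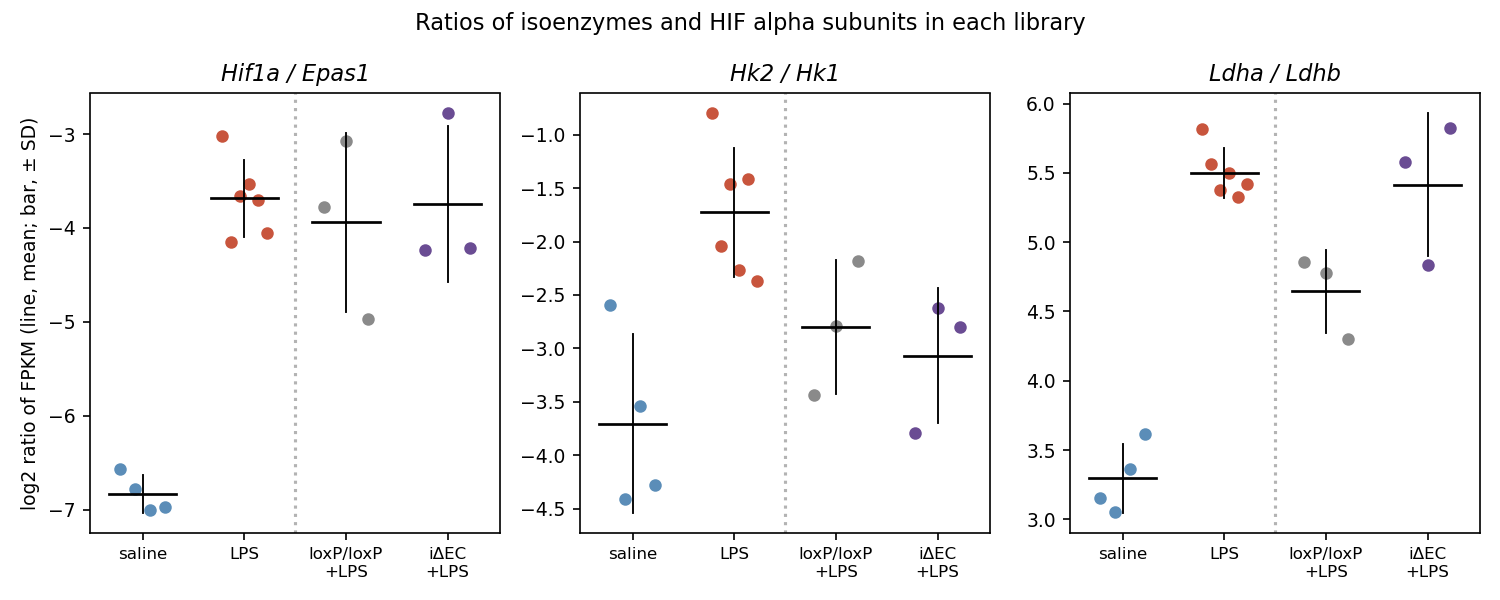
Log2 ratio of FPKM within each library (y axis) for Hif1a over Epas1, Hk2 over Hk1 and Ldha over Ldhb in the 4 groups. Points are libraries, horizontal lines are means and vertical bars are SD. All LPS points lie above all saline points in each panel, and loxP/loxP and iΔEC/iΔEC points overlap in each.

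Gapdh, usually among the most abundant mRNAs, was listed at only 1.53 ± 0.348 FPKM (SD, n = 4) in saline and 5.39 ± 3.51 FPKM (SD, n = 6) in LPS, a change of 1.20 (adjusted p 0.00709 in limma). The genome holds near-identical copies of it, of which 5 annotated in the table summed to 0.0468 FPKM in the saline mean and 0.0376 FPKM in the LPS mean. The handling of reads with several alignments was not given in the sources used here, so its values are uncertain. Annotated pseudogenes of Pgk1, Ldha, Tpi1 and Pgam1 summed to at most 4.45 FPKM in the LPS mean (those of Tpi1), where the genes were at 129, 165, 67.1 and 86.3 FPKM. As with Gapdh, low values of the copies do not show whether reads with several alignments were left out.

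**Figure D5:**
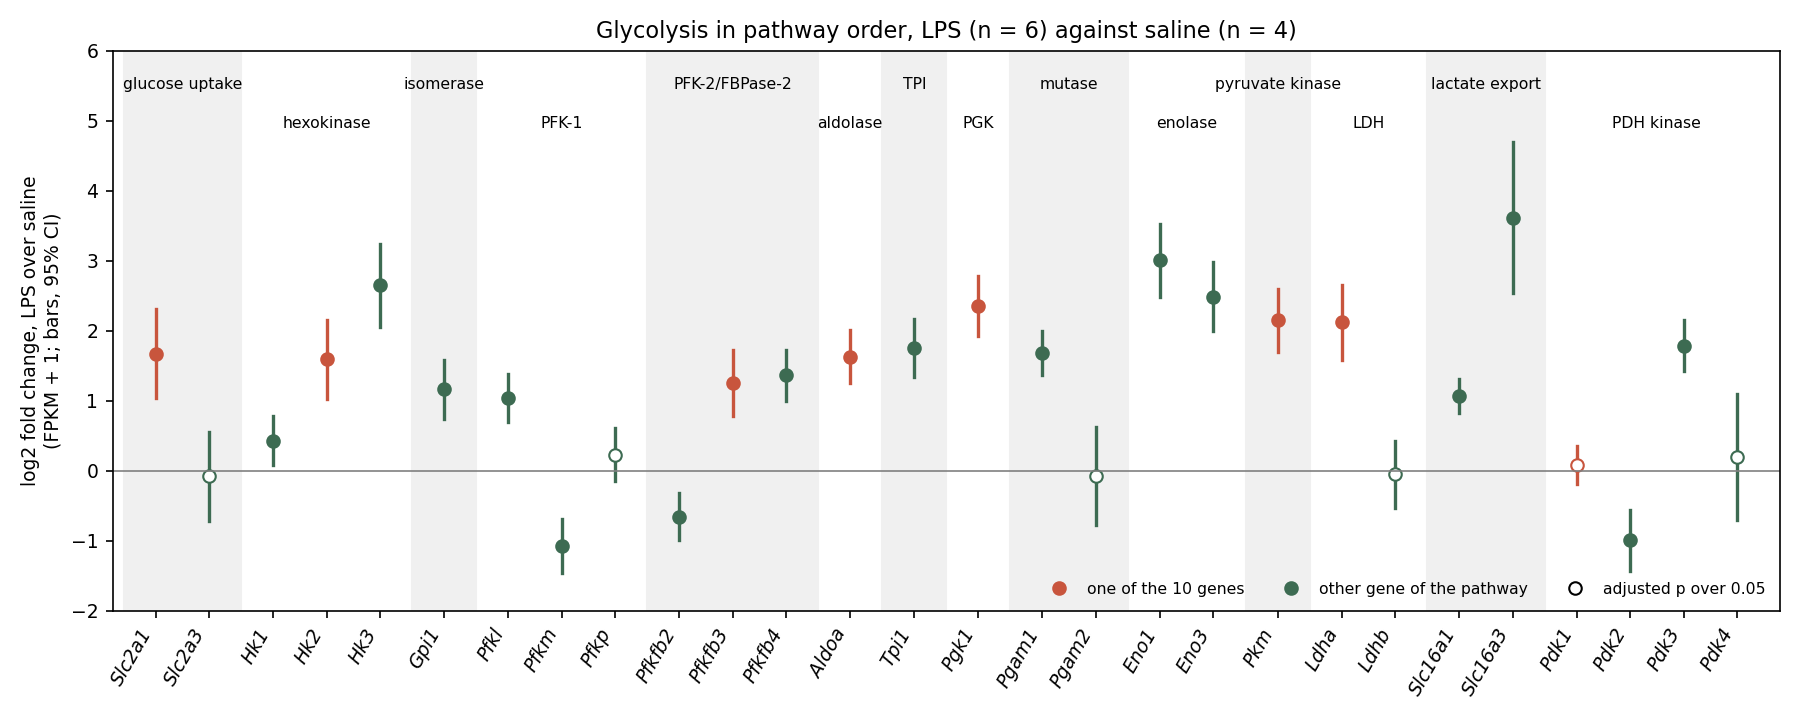
Log2 fold change of FPKM + 1, LPS over saline (y axis), of genes of glycolysis in pathway order (x axis) with their step named above; Gapdh is left out. Bars are 95% confidence intervals, red points are from the 10 genes, green points are other genes, and open points have an adjusted p over 0.05. Eno1 and Slc16a3 stand highest at 3.00 and 3.62, and Pfkm, Pfkfb2 and Pdk2 are filled points below 0.

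Where pyruvate enters mitochondria, 6 of 13 genes rose, 2 fell and 5 did not pass the test, with a median log2 fold change of 0.20. Beside the 29.5% higher and 23.7% lower of all genes, these counts are not read as a result about the list. The kinases related to Pdk1 differed from it in their values. Pdk3 rose from 2.54 ± 0.179 (SD, n = 4) to 11.5 ± 2.70 FPKM (SD, n = 6), by 1.79 (adjusted p 1.18e-05 in limma). Pdk2 fell from 9.09 ± 2.78 to 3.94 ± 0.748 FPKM, by 0.99 (adjusted p 0.00170 in limma). Pdha1 and Dlat, of the pyruvate dehydrogenase complex, rose by 0.71 and 0.53, and Mpc2, of the mitochondrial pyruvate carrier, by 0.54. Pdp1, a phosphatase that opposes the kinases, fell by 0.41 (adjusted p 0.0160 in limma). Scaled on the endothelial markers, Pdk2 had -0.37 and Pdp1 turned to 0.11 (adjusted p 0.175 and 0.651 in limma). Pdp1 also did not pass without saline 3 or without saline 4.

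Of 12 partners and regulators of HIF, 11 were tested, 3 rose, none fell and 8 did not pass the test, with a median of 0.18, a share near the 29.5% of all genes that rose. Egln3, a prolyl hydroxylase that marks HIF for degradation and is itself a HIF target, was at 0.540, 0.119, 0 and 0.267 FPKM in saline and at 0.611 to 2.28 FPKM in LPS, a change of 1.03 (adjusted p 0.00214 in limma). The 1 FPKM added before taking logs shrinks the change of a gene at such levels, and with limma-voom it was 3.63. Elob and Eloc, the elongins of the ligase that contains VHL, rose by 1.19 and 0.79. Arnt, named here for its role as the partner of both subunits and after its values were seen, was at 11.8 ± 0.963 (SD, n = 4) and 10.5 ± 1.51 FPKM (SD, n = 6), a change of -0.17 (adjusted p 0.271 in limma).

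Of 24 hypoxia-inducible genes outside glycolysis, 23 were tested, 9 rose, 2 fell and 12 did not pass the test, with a median of 0.49, where 29.5% of all genes rose and 23.7% fell. Hmox1, the gene of heme oxygenase 1, rose from 8.88 ± 2.64 (SD, n = 4) to 249 ± 45.6 FPKM (SD, n = 6), by 4.67 (adjusted p 1.34e-07 in limma). Ankrd37 rose by 2.23 and the cytokine gene Mif by 1.83. Vegfa, a growth factor for ECs and a well-known HIF target, went the other way. It was at 216, 187, 204 and 194 FPKM in saline and at 45.2 to 103 FPKM in LPS without overlap, a change of -1.66 (SE 0.22; adjusted p 0.000108 in limma), and from -2.18 to -0.94 over the 17 alternatives. Kdm3a, a histone demethylase, fell by 0.48, a change that turned to 0.19 (adjusted p 0.550 in limma) with scaling on the endothelial markers.

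The genes most like Hif1a, Epas1 and Pgk1 over the 10 libraries of this experiment were sought by Pearson's r of log2(FPKM + 1), given as a description because the libraries form separate groups. Among the nearest to Hif1a were Sele (0.988), the E-selectin gene of activated endothelium, and Hspa13 (0.986). Among the nearest to Epas1 were Thbd (0.993), the thrombomodulin gene, and Creb3l2 (0.992). Nearest to Pgk1 were Wdr1 (0.999), Bak1 (0.997) and Tkt (0.997), the transketolase gene. Mean FPKM in saline and LPS was 1.42 and 24.6 for Sele, 589.7 and 287 for Thbd, and 12.7 and 55.7 for Tkt.

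The second comparison asked whether these genes differed after deletion of Fgfr1 in ECs, where all mice had received LPS. None of the 10 genes passed the test, and their groups overlapped in all 10. Fgfr1 itself was at 2.90, 2.91 and 2.60 FPKM in loxP/loxP and at 0.682, 1.41 and 1.15 FPKM in iΔEC/iΔEC libraries, without overlap, and its change of -0.88 had an adjusted p of 0.962 in limma. Of 14945 genes tested by limma, 0 passed (0.0%) and 661 had an unadjusted p under 0.05, while limma-voom on read numbers passed 0, with 616 under 0.05 unadjusted. With the replicate number as a block (paired samples), limma passed 0 and 1154 were under 0.05 unadjusted. The values below are from the fit without the block, and those of the block are given beside them where stated. Groups were apart in 10.1% of all genes.

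Hif1a was at 58.8, 63.1 and 24.2 FPKM in loxP/loxP and at 57.4, 90.1 and 49.4 FPKM in iΔEC/iΔEC libraries, the lowest being loxP 3 and the highest iΔEC 2. Its log2 fold change was 0.49 (95% interval -0.48 to 1.46), and 0.06 without loxP 3. Epas1 was at 804, 533 and 755 FPKM and 1082, 619 and 913 FPKM, with library 2 lowest in each group, a change of 0.31 (95% interval -0.41 to 1.02). Pfkfb3 was at 52.7, 38.6 and 34.4 FPKM and 58.2, 58.2 and 40.1 FPKM, a change of 0.31 (95% interval -0.20 to 0.83). Leaving out single libraries gave changes of Epas1 from 0.12 (without loxP 2) to 0.53 (without iΔEC 2). For Pfkfb3 they ran from 0.19 (without loxP 3) to 0.49 (without iΔEC 3). Epas1 and Pfkfb3 were higher in iΔEC/iΔEC in all 3 same-numbered pairs, as were the summed endothelial markers. A sign-flip test of 3 pairs cannot go below 0.25, and the share of all genes alike in all pairs was not counted. Scaled on those markers, the log2 fold change was 0.05 for Epas1, 0.07 for Pfkfb3 and 0.24 for Hif1a. The adjusted p of these 3 genes was 0.962 in limma, and with the replicate block it was 0.647 for Hif1a, 0.692 for Epas1 and 0.644 for Pfkfb3 (unadjusted 0.0743, 0.135 and 0.0578 in limma). With the block the 95% intervals were -0.07 to 1.05 for Hif1a, -0.14 to 0.75 for Epas1 and -0.02 to 0.64 for Pfkfb3.

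The other 7 genes had log2 fold changes from -0.06 (Slc2a1) to 0.06 (Pgk1), with intervals that reached from -0.61 (Hk2) to 0.66 (Pgk1), so changes inside that range could not be resolved with 3 libraries a group. With the replicate block the intervals of these genes reached from -0.53 (Aldoa) to 0.51 (Pgk1). Without the block their adjusted p ran from 0.987 to 0.999 in limma. Pgk1 was at 85.4, 103 and 54.5 FPKM in loxP/loxP and 73.2, 97.0 and 76.9 FPKM in iΔEC/iΔEC libraries. Ldha was at 121, 137 and 97.7 FPKM and 98.0, 124 and 131 FPKM, and loxP 3 was the lowest library of its group in both genes. Hk2 was at 1.85, 2.80 and 3.61 FPKM and 1.72, 3.30 and 2.99 FPKM, and there loxP 3 was highest. The median over the 10 genes was 0.02, and that over all genes was 0.01.

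None of the 4 pathway lists held a gene that passed between the genotypes. Their medians were -0.09 for the other glycolytic genes (19 tested), 0.07 for pyruvate entry (13 tested), 0.02 for HIF partners and regulators (11 tested) and 0.14 for hypoxia-inducible genes outside glycolysis (22 tested). The log2 ratio of Ldha to Ldhb was 4.64 ± 0.30 (SD, n = 3) and 5.41 ± 0.52 (SD, n = 3), a difference of 0.77 (two-sided exact permutation p = 0.2, adjusted 0.6 over 3 ratios). By library it was 4.86, 4.77 and 4.30 in loxP/loxP and 5.58, 4.83 and 5.82 in iΔEC/iΔEC, higher in all 3 same-numbered pairs, for which the two-sided exact sign-flip p was 0.250, the smallest that 3 pairs allow. The log2 ratios of Hif1a to Epas1 and of Hk2 to Hk1 differed by 0.20 and -0.27 (two-sided exact permutation p = 0.9 and 0.6, adjusted 0.9 for both). With 3 against 3 libraries an exact permutation test, which leaves the pairing out, cannot give a p below 0.1. Leukocyte sums were 571 to 778 FPKM in loxP/loxP and 397 to 954 FPKM in iΔEC/iΔEC libraries, and endothelial sums 2303 to 2891 and 2616 to 3642 FPKM. The endothelial sum was higher in iΔEC/iΔEC in all 3 same-numbered pairs. So were Pecam1 and Cdh5, and Cdh5, at 434, 305 and 415 FPKM against 618, 439 and 580.0 FPKM, had groups that did not overlap and an adjusted p of 0.593 in limma with the replicate block (unadjusted 0.0182). Epithelial sums were 919.9 to 2909.7 and 427 to 1099 FPKM, lower in iΔEC/iΔEC in all 3 same-numbered pairs and with overlapping groups. Neutrophil sums, at 1178, 2564 and 2619 FPKM in loxP/loxP and 755, 2456 and 1548 FPKM in iΔEC/iΔEC, and mural sums, at 69.7, 91.6 and 131 and 49.1, 82.0 and 74.6 FPKM, were also lower in all 3 pairs with overlapping groups. The sums of the other 5 marker lists, the general leukocyte list among them, did not move one way in all pairs. A sign-flip test of 3 pairs cannot go below 0.250, so directions shared by all pairs are not read as a result. The part of these marker differences in the values of the 10 genes was not tested.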

How the data were processed

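Bulk RNA-seq libraries of CD31+ CD45- lung cells were compared within each of 2 tables, which were normalized separately. Per the labels and the study's methods, the authors aligned reads with HISAT2 2.0.5 to mm10 (GRCm38), counted them per gene with featureCounts 1.5.0-p3 and deposited FPKM with gene lengths for 54532 genes. Strandedness and the handling of reads with several alignments were not given in the sources used here. FPKM times gene length, divided in each library by its smallest value above 0 (taken as 1 read), gave whole read numbers for at least 99.92% of values (tolerance 0.02 reads).

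FPKM were rescaled per library by median-of-ratios factors, which departed from 1 by at most 0.182%, so the deposited values were already on that scale. Genes that averaged 0.5 FPKM or more were tested as log2(FPKM + 1) with limma 3.58.1 (trend, R 4.3.3), and p-values were adjusted after Benjamini and Hochberg over all genes tested. The steps were tested on simulated data. Ratios of FPKM were compared by exact permutation (scipy 1.17.1). Alternatives were a pseudocount of 0.1, no filter, other scalings, limma-voom on the recovered reads, a replicate block and leaving out each library.

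The 10 genes and all lists were chosen with earlier results of these data known. Named were the 10 genes, a fixed set of their isoenzymes and neighbours, up to 4 genes per direction with the largest change past the test in each pathway list, the 3 genes most correlated with Hif1a, Epas1 and Pgk1, the most abundant gene of each marker list, and Ptprc, Pecam1, Cdh5 and Fgfr1. Some genes that this rule names are not reported here. In the Fgfr1 experiment same-numbered samples deviated together (correlations 0.248, 0.178 and 0.187), so the samples count as paired by number. The labels do not state what the number marks. The reported fit was set without a block, and blocked values are given beside it. Promoter windows came from RefSeq (GRCm38.p6).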

Additional observations from a re-analysis of the deposited data

Results flagged for a closer look

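In 4 of 46 sets of 4 or 6 libraries examined, 1 library lay far from the rest of its group by Dixon's criterion, where chance gives about 2.3 (1 in 20). Hif1a was at 14.6 FPKM in saline 1 and at 10.2 to 10.9 FPKM in the other saline libraries. Pkm was at 72.1 FPKM in saline 1 and at 47.7 to 49.96 FPKM in the others. Ldha was at 61.7 FPKM in saline 1 and at 29.1 to 31.6 FPKM in the others. The second Aldoa entry, ENSMUSG00000114515, was at 0.789 FPKM in LPS 6 and at 0.272 to 0.412 FPKM in the other LPS libraries, a gene with 4 to 14 reads per library. Saline 1 also had the highest sum of 8 of the 9 marker lists, and the part of this in the values above was not tested.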

How the results depend on the processing

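Under the alternatives 440 values kept their direction and side of the threshold, or stayed near the reported value. Of the rest 29 turned sign, 10 moved, 4 no longer passed a test and 1 newly passed. The 4 were Epas1 with endothelial scaling and the sign-flip tests of the ratios, which with 4 pairs could not pass. These counts cover the 10 genes, the ratios, the totals and the medians. Among other named genes that passed, Hk1 did not pass in 10 of 17 alternatives, Pdp1 in 3 and Fgfr1 in 2. Pfkm, Pfkfb2, Pdk2, Kdm3a and Cdh5 each did not pass in 1. With 0.1 FPKM as pseudocount 1840 genes were lower with LPS and the median of the 10 genes was 1.90; with limma-voom these were 1963 and 1.96. Scaling on the endothelial markers gave 4373 genes higher and 205 lower, 0 of the 10 genes lower and a median of 2.33, and -0.20 between genotypes. Leaving out single libraries gave medians of 1.53 to 1.93 with LPS, the highest without saline 1. In the first experiment same-numbered samples correlated by 0.0972, -0.162, -0.209 and -0.117 and share only a number; with the replicate block 1925 genes were higher and 1063 lower. Sign-flip tests of the 4 same-numbered pairs gave ratio differences of 3.24 (Hif1a to Epas1), 2.06 (Hk2 to Hk1) and 2.27 (Ldha to Ldhb), each with an exact p of 0.125, the smallest possible. In the Fgfr1 experiment the replicate block changed no call, with 1154 genes under an unadjusted p of 0.05 in place of 661.

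With LPS the sign of Pdk1 turned on total reads (-0.083). Outside the counts above, endothelial scaling turned the signs of Pdp1 (0.11), Kdm3a (0.19), Slc2a3 (0.41) and Ldhb (0.51). Those of Slc2a3 and Ldhb also turned without saline 1 (0.30 and 0.19), among other settings. Between genotypes signs turned, on total reads, for Pgk1 (-0.0031), Pkm (-0.047) and Pdk1 (-0.041); with quantile normalization, Hk2 (0.0066) and Pkm (-0.017); and with endothelial scaling, Pgk1 (-0.19), Pkm (-0.23) and Pdk1 (-0.19). Without single libraries they ran from -0.26 to 0.14 (Slc2a1), -0.22 to 0.17 (Hk2), -0.16 to 0.050 (Aldoa), -0.19 to 0.26 (Pgk1), -0.16 to 0.15 (Pkm), -0.14 to 0.12 (Ldha) and -0.16 to 0.16 (Pdk1), and the ratios from -0.32 to 0.63 (Hif1a to Epas1) and -0.58 to 0.094 (Hk2 to Hk1). Beyond what each alternative changes by construction, the cause was not tested. Hk2, with 66 reads in its lowest library, is the gene of the 10 most limited by depth.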
